A study of Arabidopsis thaliana with 4 samples.

Results

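Roots of potassium-starved Arabidopsis thaliana plants of accession Col-0 were set against roots of control plants 96 h after both had been moved to their solution. The comparison is made of 1 potassium-starved array and 1 control array, 2 of the 4 arrays of the series; the other 2 hold the same pair at 48 h. Transcripts were measured in total root RNA with the Affymetrix ATH1 array, which gives 1 signal for each probe set, a group of short probes against a transcript. Plants were 4 to 5 weeks old and grew in hydroponic culture, with roots hanging in liquid nutrient solution, under a 16 h photoperiod at 22 °C and 70% humidity. In the starvation solution, 0.5 mM phosphoric acid and 1.25 mM nitric acid took the place of the 0.5 mM KH2PO4 and 1.25 mM KNO3 of the control solution, and the labels give no pH for either solution. Control plants were also transferred, from control to control solution. Both groups are wild type and carry no transgene, and the labels describe the material as a mix of roots, with no separate cultures named. With 1 array per group no difference below has a test or an error, and precision is bounded by that number.

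Potassium is the main inorganic cation of plant cells. It sets turgor and membrane voltage and activates many enzymes. Roots take it up through channels and high-affinity carriers, with root hairs adding absorbing surface, and potassium shortage is known to touch reactive oxygen, ethylene and jasmonate signalling as well as carbon and amino acid metabolism. In a whole-root sample, fewer cells of a type and less transcript per cell cannot be told apart.

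Of 22746 probe sets other than the 64 controls, 14179 reached the 40th percentile of signal on at least 1 of the 2 arrays, and 8567 did not. That percentile lay at a signal of 30.4 on the starved and 29.4 on the control array. Of those that passed, 7697 named exactly 1 gene (7610 genes in all), 294 named several and 6188 named none. Differences are log2(signal + 16), starved minus control, and fold sizes are on that scale, which understates changes of dim probe sets. As markers of the labelled tissue, 10 root hair genes were named, of which 8 passed the filter and the rest did not. Those 8 were above the cutoff on both arrays and spanned 109 to 1970 on the starved and 84.5 to 1129 on the control array. Of nuclear photosynthesis genes 12 were also measured, at 35.3 to 198 and 28.4 to 336, as were chloroplast genome transcripts, at up to 1283 and 1525.

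At 96 h, 61 probe sets (0.43% of those that passed) were at least 2-fold higher in starved roots and 74 (0.522%) at least 2-fold lower. At 1.5-fold the counts were 392 higher (2.76%) and 380 lower (2.68%). The median difference over all probe sets was 0.00, and the SD of the differences was 0.302. At 48 h the same probe sets had an SD of 0.238, with 159 at least 1.5-fold higher (1.12%) and 180 lower (1.27%). The share past 1.5-fold in either direction was thus 2.39% at 48 h and 5.44% at 96 h. The filter used the 96 h arrays only, and passing on 1 of the 2 favours a difference at 96 h, not at 48 h. Without like arrays, how much of either share lies within the spread between arrays cannot be given. In 23 of the 61 higher and 23 of the 74 lower probe sets, the dimmer array was below its own 40th percentile, so those folds rest on a signal in the dim range.

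Brightness changed this picture. Probe sets were divided at the 25th, 50th, 75th and 95th percentile of their mean level into 5 classes, from class 1 with mean signals of 14.5 to 53.8 to class 5 with 709 to 4657. The share past 1.5-fold at 96 h was 6.09% in class 1 (95% Wilson interval 5.35 to 6.93%), 4.32% in class 2 (3.70 to 5.04%), 4.96% in class 3 (4.30 to 5.73%), 6.28% in class 4 (5.44 to 7.23%) and 6.91% in class 5 (5.27 to 9.02%). These intervals cover the number of probe sets only, not the spread between arrays. At 48 h the share was 3.86% in class 1 and between 1.59% and 2.14% in the other classes. The share at 96 h was 1.58 times that at 48 h in class 1, 2.01 times in class 2, 2.67 times in class 3, 3.96 times in class 4 and 3.27 times in class 5. The ratio of class 1 depends on how dim signals are treated: it was 0.699 with the filter applied to both arrays, 1.30 with a pseudocount of 1 and 6.67 once that was raised to 64, while class 4 gave 4.05, 3.16 and 6.15. Without the filter, with classes cut over all probe sets, the ratio was 0.858 in class 1 and 1.01 in class 2. It was then 2.05 in class 3, 3.18 in class 4 and 3.48 in class 5. After cyclic loess normalization the ratio was 1.56 in class 1, 3.78 in class 4 and 3.00 in class 5, where the share at 96 h was then 5.08%. In class 1, 169 of the 216 probe sets past 1.5-fold were below the cutoff on 1 array, against 4 of 153 in class 2 and 0 in the 3 brighter classes.

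**Figure D1:**
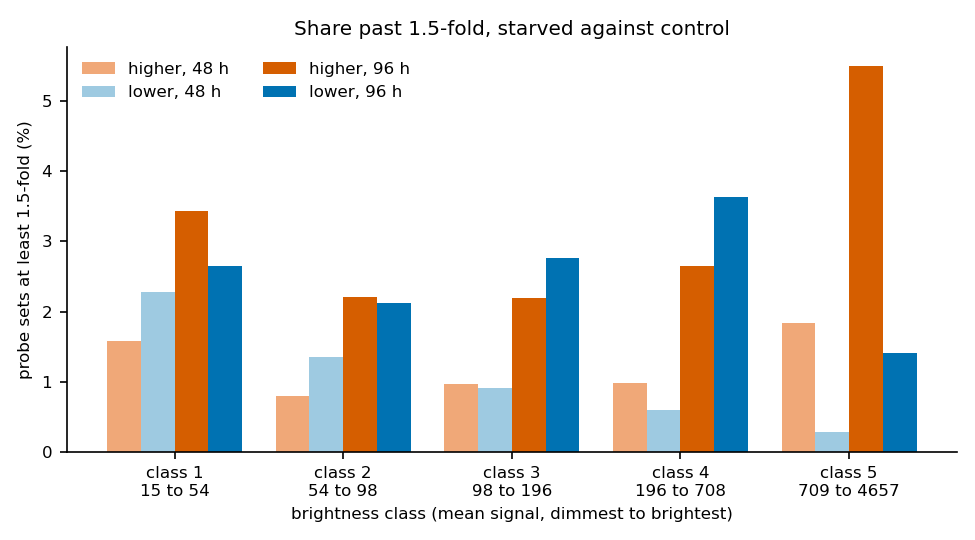
Share of probe sets at least 1.5-fold higher (orange) or lower (blue) in starved than in control roots, in percent, for each of the 5 brightness classes at 48 h (pale) and 96 h (dark). Classes are labelled with their range of mean signal. Class 5 stands out at 96 h, with 39 higher and 10 lower probe sets of 709.

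The brightest class was lopsided. Its median difference at 96 h was 0.18, and 78.3% of its probe sets lay above 0, compared with 50.1% of all probe sets. At 48 h its median was 0.07. The hybridisation spikes, bacterial and phage transcripts added to every sample in fixed amount, were also higher on the starved array, but dim and bright ones alike. All 18 above the cutoff were at least 1.5-fold higher, with a median log2 difference of 0.88 and a range of 0.64 to 1.05. The bright CreX-3 measured 1758 on the starved and 855 on the control array, and the dim BioB-3 measured 50.9 and 19.2. Among the array's 18 Arabidopsis control probe sets for actin, GAPDH, ubiquitin and ribosomal RNA, 16 lay above 0, with a median of 0.40. The part of this offset in the differences of bright genes was not tested. After cyclic loess normalization, which evens out the arrays along brightness, the median of class 5 was 0.05 and its counts were 23 higher and 13 lower. Centring each class on its own median gave 17 higher and 19 lower. Classes 3 and 4 leaned the other way in the main setting, with 78 higher and 98 lower, and 75 higher and 103 lower.

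**Figure D2:**
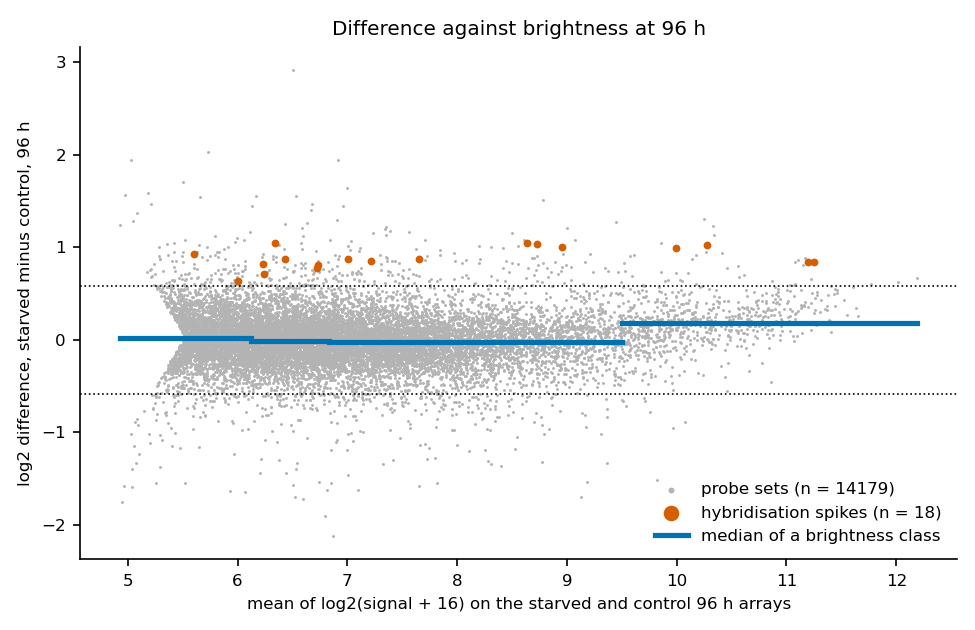
Log2 difference of starved minus control at 96 h (vertical axis) against the mean log2(signal + 16) of both arrays (horizontal axis). Grey points are the 14179 probe sets, orange points the 18 hybridisation spikes, blue bars the median of each brightness class and dotted lines mark 1.5-fold. The 4 dimmer classes have medians near 0, the brightest one 0.18, and every spike lies above the upper line.

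Genes were then grouped by function into 40 lists with at least 3 measured genes, 455 genes in all. The lists hold 41 of the 197 single-gene probe sets at least 1.5-fold higher (20.8%) and 29 of the 189 at least 1.5-fold lower (15.3%), while 5.91% of all single-gene probe sets are in a list. Many lists were drawn up with earlier results of these data known, so a list's count describes it and supports nothing beyond that. The highest medians belonged to root hair genes, extensin-family proteins and hypoxia genes, and the lowest to glucosinolate biosynthesis and to the breakdown of branched-chain amino acids, lysine and methionine.

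**Figure D3:**
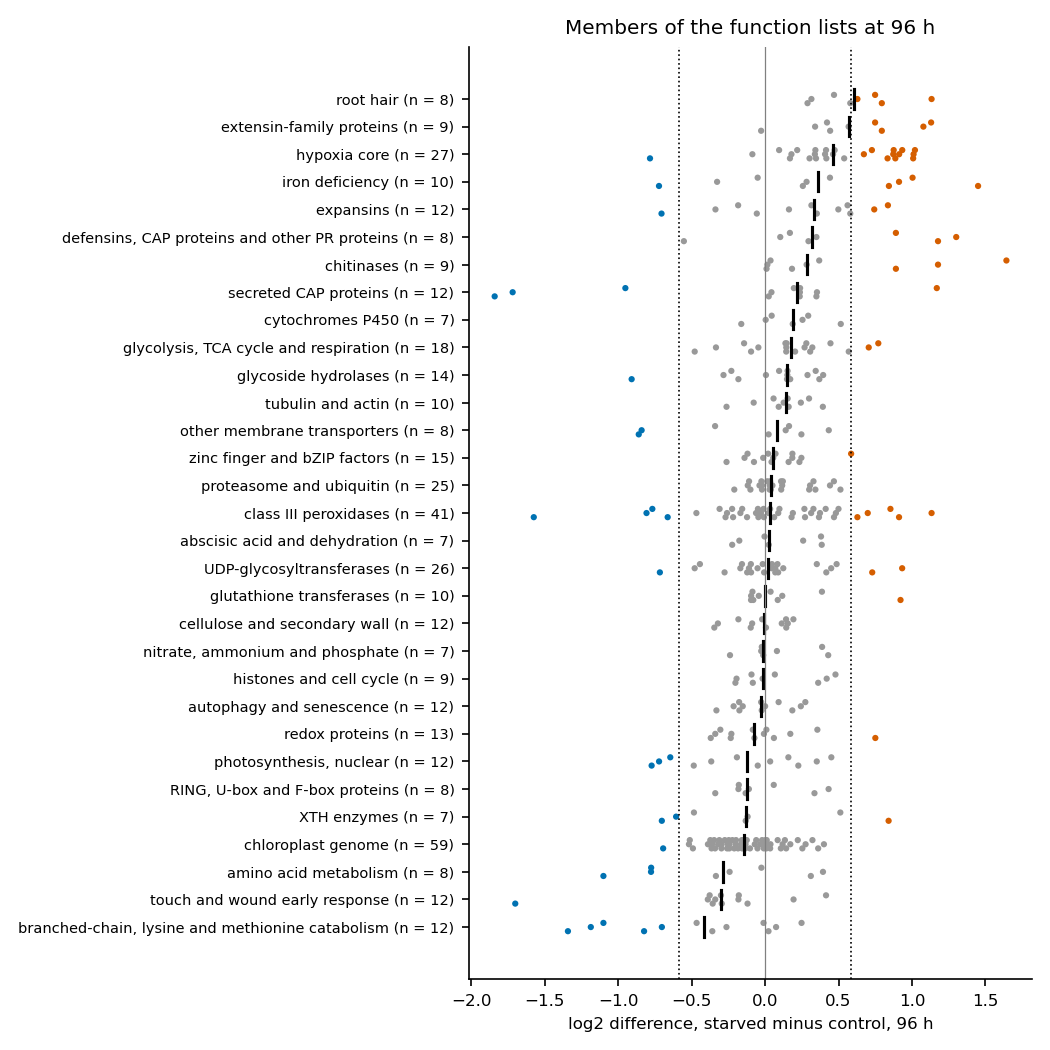
Log2 difference of starved minus control at 96 h for the members of the lists with at least 7 measured genes. Each point is 1 gene, orange where at least 1.5-fold higher and blue where at least 1.5-fold lower, vertical bars are list medians and dotted lines mark 1.5-fold. Root hair genes lie entirely above 0, and the bottom 3 lists hold members past 1.5-fold on the lower side only.

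Wall proteins of the root hair and the growing root made up the first group. All 8 measured root hair genes were higher in starved roots at 96 h, where 50.1% of all probe sets lay above 0. At least 1.5-fold higher were 4 of them, against 2.76% of all probe sets, and these include the extensin-family genes HRGP1 and AT3G54580. The median log2 difference of the 8 was 0.38 at 48 h and 0.60 at 96 h, but members differed. HRGP1 went from -0.17 to 0.79 and AT3G54580 from -0.29 to 0.75. Signals of the 8 fell between the times in both solutions, by a median log2 change of -0.34 in starved and -0.52 in control roots. AT3G49960, a class III peroxidase of root hairs, measured 226 on the starved and 94.4 on the control array, 2.19-fold higher, after 1.34-fold at 48 h. AT1G30870, another root hair peroxidase, measured 529 and 337, 1.55-fold higher, after 1.38-fold at 48 h. The expansins EXPA18 and EXPA7, which loosen walls of elongating hairs, were 1.49-fold and 1.24-fold higher, after 1.51-fold and 1.47-fold at 48 h. The endoglucanase GH9C1 was 1.22-fold higher, after 1.26-fold at 48 h.

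Extensins are hydroxyproline-rich glycoproteins that are cross-linked into the wall. At 96 h, 8 of 9 were higher in starved roots and 4 were at least 1.5-fold higher, with a median of 0.57. Over all probe sets those shares were 50.1% and 2.76%, and this list was added after values were seen. At 48 h all 9 lay below 0, with a median of -0.29. AT5G06630 measured 1899 on the starved and 859 on the control array at 96 h, 2.19-fold higher, after 335 and 456 at 48 h. AT4G08410 measured 765 and 354 at 96 h, 2.11-fold higher, after 154 and 214 at 48 h. HRGP1 measured 1970 and 1129 at 96 h, and AT3G54580 measured 846 and 497. Those 2 genes are also among the 8 root hair genes. Extensin genes repeat near-identical stretches, and several of these probe sets are marked as matching more than 1 transcript, so which copy was measured is uncertain. All 9 genes were in brightness classes 4 and 5. After cyclic loess normalization their median was 0.48, with 4 again at least 1.5-fold higher. From 48 h to 96 h, 8 of the 9 were at least 2-fold higher in starved roots and 3 in control roots, where 1.74% and 1.24% of all probe sets were.

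Other wall-modifying families were mixed. Of 12 expansins, 2 were at least 1.5-fold higher and 1 lower, with a median of 0.33. EXPB3, a beta-expansin, measured 468 on the starved and 255 on the control array, and EXPA4 measured 624 and 366. The expansin-like gene EXLA1 measured 48.9 and 89.9, 1.63-fold lower, and had been 2.58-fold lower at 48 h. Among 7 xyloglucan endotransglucosylase/hydrolases, which cut and rejoin xyloglucan chains, XTH20 was 1.79-fold higher, while XTH33 was 1.63-fold and XTH16 1.52-fold lower. XTH33 was below the cutoff on the starved array. None of 12 cellulose and secondary wall genes passed 1.5-fold, and their range ran from CSLA03 at -0.35 to CCR2 at 0.19.

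Of all lists, the hypoxia genes held the most members past 1.5-fold on the higher side at 96 h. These are genes induced in many organs when oxygen falls, among them fermentation enzymes, and they are also raised by other stresses. Of 27 measured, 25 were higher in starved than control roots at 96 h, 11 of them by 1.5-fold or more, and 1 was lower by that much. Over all probe sets, 50.1% lay above 0 at 96 h, 2.76% were at least 1.5-fold higher and 2.68% lower. In the brightest class the share above 0 was 78.3% and the share at least 1.5-fold higher 5.50%. The median of the 27 was 0.13 at 48 h and 0.46 at 96 h. AT5G47060, an FLZ zinc finger protein, measured 402 on the starved and 190.2 on the control array. AT3G23170 measured 167 and 74.7, and AT5G44730, a haloacid dehalogenase-like hydrolase, 434 and 208. Each of these was close to 2-fold higher. AT4G10270, a wound-responsive family protein, measured 1055 and 553. AT3G10040, the trihelix repressor HRA1, measured 330.4 and 201.3, 1.59-fold higher. The pyruvate decarboxylase gene PDC2 measured 1688 and 1331, 1.26-fold higher, and the lactate dehydrogenase gene AT4G17260 was 1.33-fold higher. AT3G10020 stood against the rest, with 199 on the starved and 354 on the control array.

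Starved and control roots alike gave most of these genes more signal at the later time. Between 48 h and 96 h, 21 of the 27 were at least 2-fold higher in starved roots, and 17 of the 27 in control roots. Of all probe sets, 1.74% were in starved and 1.24% in control roots. In starved roots AT3G10020 was at least 2-fold lower, with 428 at 48 h and 199 at 96 h. In control roots AT4G39675 hardly moved, with 1659 at 48 h and 1615 at 96 h. The 2 genes that follow rose far. AT3G29970 had 4.42 on the starved and 11.8 on the control array at 48 h, with 1353 and 1161 for starved and control at 96 h. AT2G17850 had 27.8 in starved and 31.9 in control roots at 48 h, with 1401 and 839.8 at 96 h. The difference between starved and control roots at 96 h was thus smaller than the difference between the times for these 2 genes, which lies in both solutions. In brightness classes 4 and 5 lay 23 of the 27. With cyclic loess the median was 0.43 with 11 at least 1.5-fold higher, and with each class centred on its median it was 0.37 with 10 higher.

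**Figure D4:**
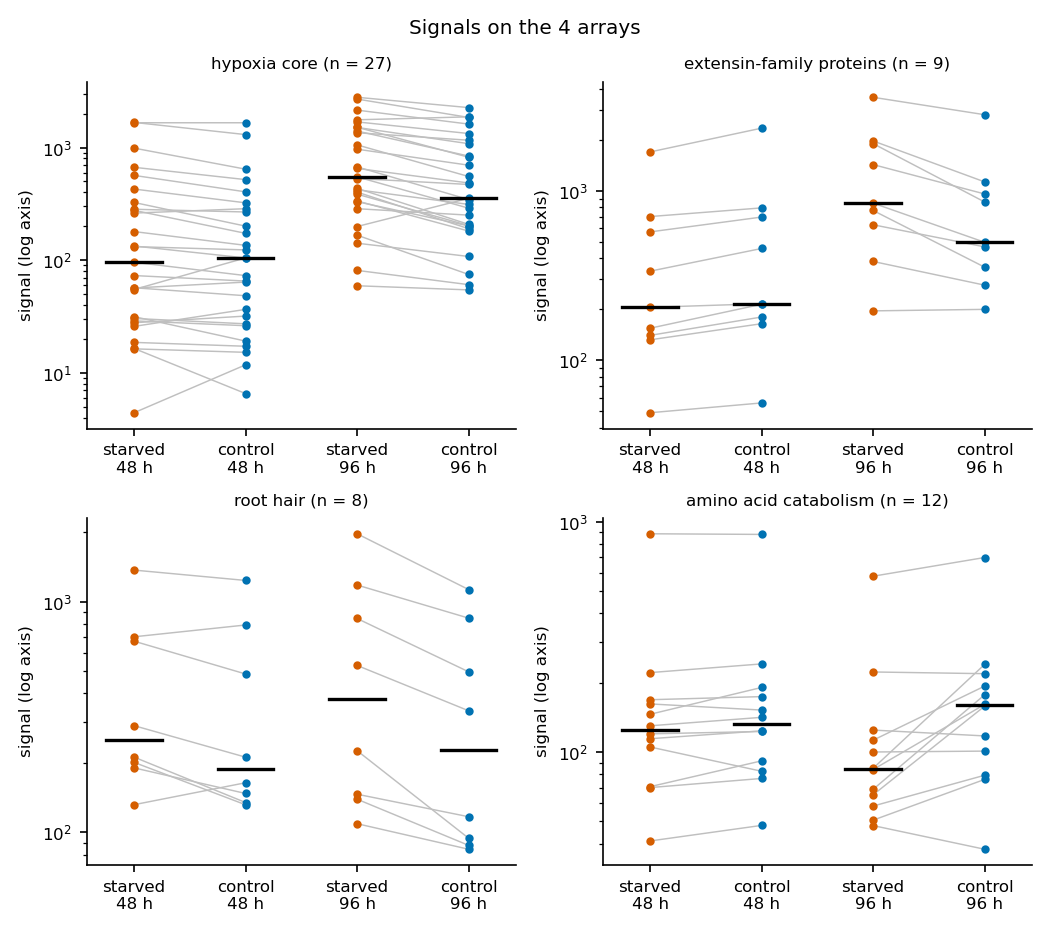
Signals on the 4 arrays for the hypoxia, extensin-family, root hair and amino acid catabolism genes. Each point is 1 gene on a log axis, starved orange and control blue, grey lines join the arrays of a time and black bars are medians. Hypoxia genes had medians of 95.8 in starved and 104.6 in control roots at 48 h, and 549 and 354 at 96 h, while the catabolic genes had 84.4 and 159 at 96 h.

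Several defence-related secreted proteins had higher signals in starved roots. All 9 measured chitinases, which hydrolyse chitin of fungal walls, lay above 0 at 96 h, the lowest at 0.01, and 3 of them were at least 1.5-fold higher. Over all probe sets those shares were 50.1% and 2.76%. This list was added after values were seen. After cyclic loess, 8 of the 9 lay above 0. AT2G43590 measured 210.2 on the starved and 56.4 on the control array, 3.12-fold higher, after 63.9 and 79.1 at 48 h. CHI measured 235 and 95.1, and ChiC measured 208 and 104.7. AT2G43590 and CHI belong to a cluster of related genes, and signal shared between copies is possible. Of 8 defensins and other pathogenesis-related proteins, a list that also holds CHI and ChiC, 7 lay above 0 and 3 were at least 1.5-fold higher; after cyclic loess, 6 lay above 0. The defensin PDF2.1 measured 172 and 60.3 at 96 h, 2.46-fold higher, against a far brighter 624 and 389 at 48 h. Osmotin OSM34 was the exception, with 1144 on the starved and 1686 on the control array, 1.47-fold lower (log2 difference -0.55, and -0.69 after cyclic loess).

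Secreted CAP proteins, relatives of pathogenesis-related protein PR-1, split. Most of the 12 lay slightly above 0, with a median of 0.22, yet 3 were at least 1.5-fold lower and 1 at least 1.5-fold higher. Over all probe sets those shares were 2.68% and 2.76%, and this list was added after values were seen. AT4G33720 measured 513 on the starved and 1880.3 on the control array, 3.58-fold lower, after 1460 and 1231 at 48 h. AT4G07820 measured 702 and 1373, 1.93-fold lower. AT5G26130 measured 37.4 and 159.9, 3.29-fold lower, after 1007 and 1714 at 48 h. AT4G25790 went the other way, with 267 and 109.7.

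Class III peroxidases, wall enzymes that use hydrogen peroxide, were evenly divided: 5 of 41 were at least 1.5-fold higher and 4 lower, with a median of 0.03. Over all probe sets those shares were 2.76% and 2.68%, and this list was added or extended after values were seen. The higher ones include AT3G49960 and AT1G30870 of the root hair list. AT5G64120 measured 127 on the starved and 63.2 on the control array, AT5G24070 measured 76.3 and 40.8, and AT1G14550 measured 37.4 and 12.4. On the lower side AT1G49570 measured 100.7 and 332, 2.98-fold lower, AT3G03670 measured 419 and 746, AT4G11290 measured 359 and 623, and AT5G19890 measured 651 and 1040.2.

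Of all lists, the breakdown of amino acids held the most members past 1.5-fold on the lower side at 96 h, 5 of 12; this list was added after values were seen. In plant mitochondria, leucine, isoleucine and valine are oxidised by a chain of dehydrogenases and carboxylases that feeds electrons to the electron-transfer flavoprotein and is known to be raised by darkness and sugar shortage. All 12 named genes of this group and of lysine and methionine breakdown passed the filter. Of these, 5 were at least 1.5-fold lower in starved roots at 96 h and 0 higher, against 2.68% and 2.76% of all probe sets. Their median was -0.41 at 96 h and -0.10 at 48 h. MCCA, the biotin-carrying subunit of 3-methylcrotonyl-CoA carboxylase in leucine breakdown, measured 84.9 on the starved and 239.95 on the control array, 2.54-fold lower. MCCB, the other subunit, measured 113 and 193. IVD, the isovaleryl-CoA dehydrogenase one step upstream, measured 68.8 and 177, 2.28-fold lower.

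MGL, methionine gamma-lyase, measured 65.2 on the starved and 158 on the control array, 2.14-fold lower. AT4G33150, the lysine-ketoglutarate reductase/saccharopine dehydrogenase that starts lysine breakdown, measured 83.9 and 161. At 48 h these 5 genes were each under 1.5-fold, MCCA with 221 and 241 and IVD with 130 and 141. D2HGDH and ETFQO, which pass electrons on, were 1.38-fold and 1.28-fold lower, and ETFALPHA, ETFBETA and AT2G26800 lay within 0.1 of 0. AT5G09300, a subunit of the branched-chain keto acid dehydrogenase, was 1.19-fold higher. The group lay mostly in brightness classes 2 and 3, where class medians were -0.01 and -0.02, and its count of 5 was the same after cyclic loess and after centring.

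Methionine-derived glucosinolates, the sulfur-rich defence compounds of the cabbage family, start from amino acid metabolism, and BCAT4 counts in both lists. BCAT4, the aminotransferase that opens their chain elongation, measured 646 on the starved and 1118 on the control array, 1.71-fold lower, and is in the brightest class. UGT74B1, which glucosylates their core, measured 186 and 316, 1.64-fold lower. AT2G31790, a related glucosyltransferase, was 1.33-fold lower. The glutathione transferase gene GSTU20, the 1 member above 0, was 1.08-fold higher. The 4 measured genes of this list, which was added after values were seen, had a median of -0.56 at 96 h and 0.09 at 48 h. At least 1.5-fold lower were 2 of the 4, against 2.68% of all probe sets. The asparaginase gene ASPGB1 measured 35.8 and 72.6, whereas its relative ASPGA1 measured 268 and 273.

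Sugar transport and central carbon metabolism moved less. The fructose carriers of the vacuole membrane SWEET16 and SWEET17 were 1.82-fold and 1.79-fold lower in starved roots. SWEET16 measured 151 on the starved and 288 on the control array, and SWEET17 measured 272 and 499. The other 6 genes of the membrane transporter list stayed under 1.5-fold. Of 18 glycolytic, tricarboxylic acid cycle and respiratory genes, 13 lay above 0 and 2 passed 1.5-fold: PGM, AT1G78050, with 231 and 129, and IDH-VI, an isocitrate dehydrogenase subunit, with 236 and 138. GAPC2, the cytosolic glyceraldehyde-3-phosphate dehydrogenase, measured 3770 and 2536, in the range where the class median itself was 0.18. ATL8, a RING-type ubiquitin ligase gene known to be raised by sugar starvation, measured 35.02 and 149.9, 3.25-fold lower.

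Of 12 named genes of the iron deficiency response, a list added after values were seen, 10 passed the filter. Among these, 4 were at least 1.5-fold higher and 1 lower, against 2.76% and 2.68% of all probe sets, with a median of 0.36. AT3G12900, the enzyme that hydroxylates scopoletin to make the iron-mobilising coumarin fraxetin, measured 99.9 on the starved and 26.4 on the control array, 2.73-fold higher, after 17.1 and 19.8 at 48 h. AT1G47400, the small peptide IRONMAN1, measured 58.9 and 21.4. AT5G05250 measured 57.9 and 23.3. The control array was below its cutoff for all 3. These 3 of the 4 higher genes thus passed the filter only through the starved array, where they are high, so the count draws nothing further. The bHLH factors that act upstream in this response were brighter and went opposite ways, with bHLH115 at 751 and 412 and bHLH104 at 164 and 281. PYE, a repressor in the same network, was 1.36-fold higher. Both solutions were made with the iron chelate FeNaEDTA.

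Photosynthesis transcripts were mixed. Of 12 nuclear genes, 5 lay above 0 and 7 below, 3 were at least 1.5-fold lower and 0 higher, and the median was -0.12. The antenna proteins LHCB4.1 and LHCB4.2 were 1.65-fold and 1.56-fold lower, and PORB, which makes chlorophyllide in light, 1.71-fold lower. LHCB4.1 measured 198 on the starved and 336 on the control array. The highest of the 12 was SBPASE, a Calvin cycle enzyme, 1.37-fold higher with 44.6 and 28.4, followed by the photosystem I subunit PSAE-1, 1.28-fold higher. The summed signal of the 12 genes was 1042 in starved and 974 in control roots at 48 h, and 1269 and 1560 at 96 h. Among 59 genes of the chloroplast genome, 41 lay below 0, with a median of -0.15, and psaB, a photosystem I core gene, was 1.62-fold lower with 168 and 282. The part of green or light-exposed root tissue in these values was not tested.

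Hormone and regulator genes named by the annotation were few. The 3 gibberellin receptors all lay below 0: GID1B measured 153 on the starved and 233 on the control array, while GID1A and GID1C were 1.22-fold and 1.27-fold lower. GH3.17, which conjugates auxin to glutamate, was 1.61-fold higher. WRKY53, a senescence regulator, measured 30.9 and 76.02, and WRKY6 measured 199.7 and 117. Of 12 touch and wound early-response genes, 10 lay below 0, with a median of -0.30, but only ATL8 passed 1.5-fold. CML38, a calmodulin-like protein that is in this list and in the hypoxia list, was 1.33-fold higher at 96 h and had been 1.70-fold lower at 48 h.

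Small-molecule conjugating enzymes gave single genes rather than family shifts. Of 26 UDP-glycosyltransferases, UGT72E2 (803 on the starved and 413 on the control array) and UGT72E1 (439.9 and 259), which glucosylate lignin precursors, were at least 1.5-fold higher and UGT74B1 lower, with a median of 0.02. Of 10 glutathione transferases, GSTU22 alone passed, at 147 and 70.1. None of 7 cytochromes P450 did. BGLU16, a beta-glucosidase, measured 122.4 and 244, 1.88-fold lower, the single member past 1.5-fold among 14 glycoside hydrolases. ARPN, plantacyanin, measured 529.9 and 309, 1.68-fold higher.

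Several lists had no member past 1.5-fold, which 5.44% of all probe sets were, so that lists of this length would hold few at that share: 25 proteasome and ubiquitin genes (median 0.04), 12 autophagy and senescence genes (-0.02), 10 tubulin and actin genes (0.14), and 9 histone and cell cycle genes (-0.02). APG8A, an autophagosome protein, was 1.21-fold higher. The 7 measured nitrate, peptide and glucosinolate transporter family genes and the 3 iron and zinc genes also had no member past 1.5-fold. Of 6 potassium transport genes named by the annotation, CHX16, a cation/proton exchanger family member, was the 1 that passed the filter, with 33.7 on the starved and 38.7 on the control array. AT1G63010, a vacuolar phosphate transporter chosen here after its value was seen, measured 193 and 344, 1.72-fold lower.

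Within each brightness class, the 4 highest and 4 lowest single-gene probe sets show how far differences reached at each level. In class 1 the extremes rest on signals near 0: AT3G55790 measured 48.2 on the starved and 0.71 on the control array, and AT4G24350 measured 2.06 and 37.9. AT5G37990, a methyltransferase family gene, measured 77.6 and 27.6 there, with 65.5 and 25.2 at 48 h. In class 2, AT4G01870 measured 155 and 45.5, 2.78-fold higher, and AT1G06620, a 2-oxoglutarate-dependent dioxygenase, measured 41.2 and 134, 2.63-fold lower.

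In class 3, AT4G01390 measured 221 on the starved and 45.7 on the control array, 3.84-fold higher, and AT5G18840, a sugar transporter family member, measured 231 and 91.4. On the lower side AT5G05600, a jasmonate-induced oxygenase that inactivates jasmonic acid, measured 51.7 and 181, 2.92-fold lower, and AT5G60760 was 2.76-fold lower. In class 4, AT2G44670 measured 519.97 and 249, 2.02-fold higher. AT5G14120, a major facilitator family transporter, measured 294 and 989.5, 3.24-fold lower, and AT5G61590, the ERF factor DEWAX that represses wax synthesis, measured 261 and 675, 2.49-fold lower. AT5G26260 was 2.30-fold lower.

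In class 5 the higher genes stood closer to the offset of that class. AT4G39200, a ribosomal protein S25 gene, measured 1867 on the starved and 966 on the control array, 1.92-fold higher, and AT3G22240 measured 1574 and 825, 1.89-fold higher. Next to the CAP proteins, AT4G22212, a defensin-like protein, measured 778 and 1456, 1.85-fold lower. The lower genes of this class lie against its offset.

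**Figure D5:**
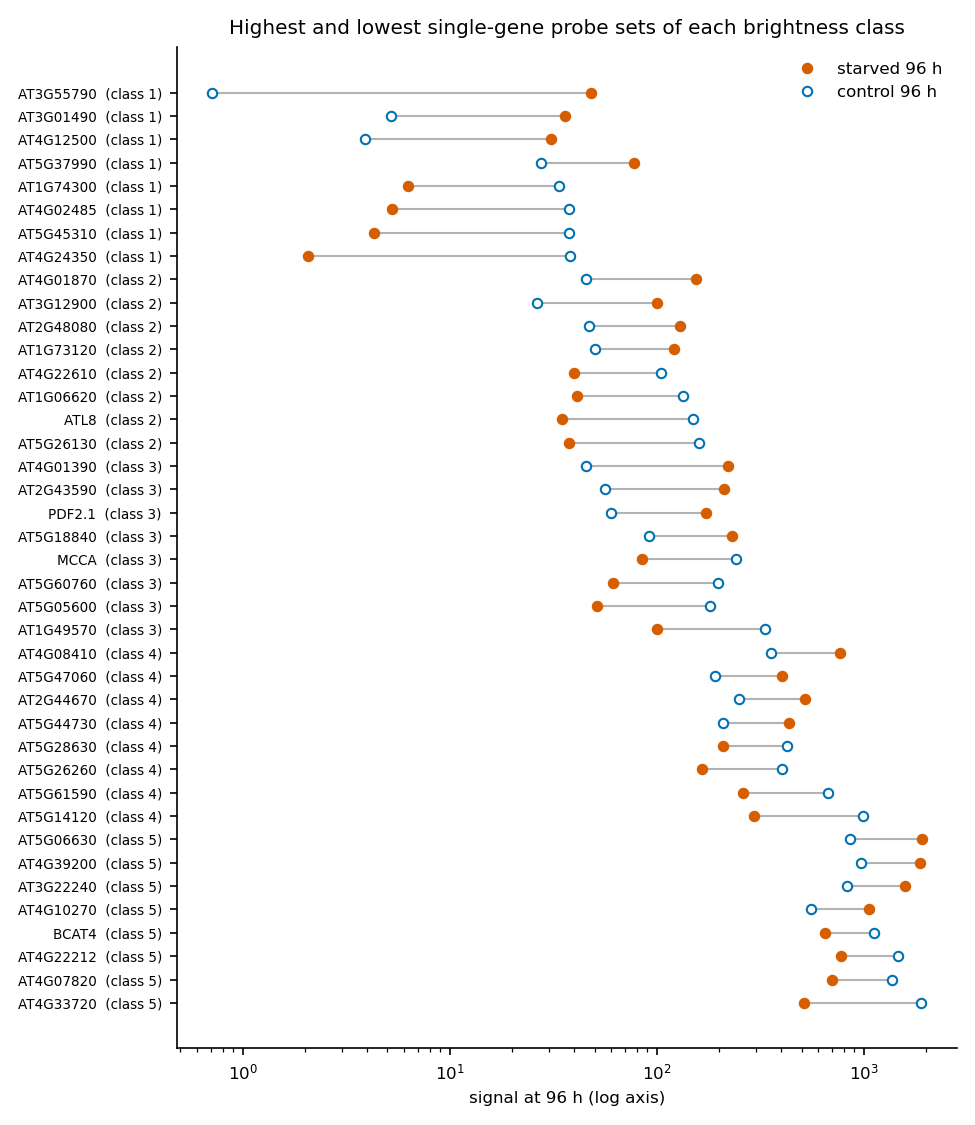
Signals at 96 h, on a log axis, of the 4 highest and 4 lowest single-gene probe sets in each brightness class, starved in filled orange and control in open blue. Class 1 genes have 1 signal below the cutoff, as low as 0.71, whereas class 5 genes have both signals at 513 or more.

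Probe sets past 1.5-fold at 96 h were set beside their own difference at 48 h, when 97.6% of all probe sets were under 1.5-fold. Of the 392 higher probe sets, 33 were at least 1.5-fold higher at 48 h as well, 6 were at least 1.5-fold lower then, and 353 were under 1.5-fold. Of the 380 lower ones, 22 were lower at 48 h too, 5 were higher then, and 353 were under 1.5-fold. The 33 are 8.42% of the 392 and the 22 are 5.79% of the 380, where 1.12% of all probe sets were higher and 1.27% lower at 48 h. Among the 61 probe sets at least 2-fold higher at 96 h, 13 were 1.5-fold higher at 48 h, and among the 74 lower ones 7 were lower. The 48 h and 96 h pairs share no array.

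Many large differences have no gene name in the annotation used. The probe set 254743_at measured 233 on the starved and 17.0 on the control array at 96 h, the largest difference of all that passed at 7.54-fold, and 150.02 and 25.9 at 48 h. The probe set 253502_at measured 91.1 and 10.2 at 96 h. On the lower side 266799_at measured 40.1 and 227, 4.34-fold lower, and 264415_at measured 41.4 and 199, 3.75-fold lower. At 48 h those last 2 measured 122.2 and 135, and 197 and 180.3. Only 28 of the 61 probe sets at least 2-fold higher and 27 of the 74 lower ones name a single gene, so the lists by function cover less than the whole change. In 82 genes with several probe sets that passed, the differences spanned a median of 0.17 between them and at most 0.86. In 0 of them were 2 probe sets past 1.5-fold in opposite directions. With 2.76% of all probe sets higher and 2.68% lower by that much, hardly any such pair would arise in 82 genes, so the 0 says little.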

How the data were processed

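The authors deposited 1 MAS5 signal intensity per probe set and array on a linear scale, per the submitters' processing notes; version, settings and build: not given in the sources used here. On every array the 2% trimmed mean of the deposited values was 100.01, so intensities had already been scaled. Each array was set to a 2% trimmed mean of 100, and log2(signal + 16) was used. Arrays were grouped by their titles. Probe sets were compared where either 96 h array reached its 40th percentile, with 1 probe set per gene (the highest mean) in the lists. Calls are folds of at least 2 or 1.5, with no test.

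Of the probe sets, 13513 name 1 gene in the platform annotation, 503 several and 8730 none; 13436 of the 13513 matched the RefSeq table of TAIR10.1. The members and lists were chosen with earlier results of these data known. Of 66 lists, 10 were added or extended after values were seen, among them extensin-family proteins, chitinases, CAP proteins, peroxidases, iron deficiency, glucosinolate biosynthesis, organelle genomes and amino acid catabolism, and 49 name clashes were taken out. Named genes are the 4 highest and 4 lowest of each brightness class, up to 3 each way past 1.5-fold per list or else its extremes, and 3 each way without a single gene. Other list members were picked with their values known, to fill out a group. Alternatives were 2 other pseudocounts (1 and 64), no filter or stricter filters, equal medians, and quantile and cyclic loess normalization of the 4 arrays with limma 3.58.1 in R 4.3.3. Python 3.11.15 was used otherwise. The counting step was tested on simulated data with planted folds, which says nothing of the spread between arrays.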

Additional observations from a re-analysis of the deposited data

Results flagged for a closer look

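In 11 of the 14179 probe sets the difference between starved and control roots passed 1.5-fold at both times in opposite directions. Over all probe sets, 2.76% were higher and 2.68% lower by that much at 96 h, and 1.12% and 1.27% at 48 h. At these shares, unrelated calls at the 2 times would also give some opposite pairs, so the 11 are listed only. Of these, 7 name a single gene, and the difference between the times was not tested. At 96 h the log2 difference was -0.88 for AT3G47010, -0.71 for AT4G05070, -0.65 for AT1G30260 and -0.59 for AT1G24560, all of them higher in starved roots at 48 h. It was 0.61 for AT2G25510, 0.66 for AT4G33440 and 0.67 for sks16, a multicopper oxidase-like gene, all lower in starved roots at 48 h. AT4G05070 was the brightest of the 7, with 501 in starved and 325 in control roots at 48 h, and 226 and 380.1 at 96 h.

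Control probe sets outside the comparison stood apart on the control array of 96 h. The log2 difference at 96 h was 1.05 for BioDn-3, 1.03 for CreX-3, 1.05 for r2-Ec-bioB-3, 1.01 for r2-Ec-bioD-3 and 1.04 for r2-Ec-bioD-5, each higher on the starved array. BioDn-3 measured 542 in starved and 405 in control samples at 48 h, and 555 and 260 at 96 h.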

How the results depend on the processing

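No paired analysis was possible because each group holds 1 array, and for the same reason no array could be left out. With a pseudocount of 1, the counts were 130 higher and 135 lower at 2-fold, and 674 higher and 612 lower at 1.5-fold. With a pseudocount of 64 they were 13 and 28 at 2-fold, and 148 and 143 at 1.5-fold; of 116 named genes, 20 then fell under 1.5-fold. With the filter on both arrays, 38 probe sets were at least 2-fold higher. The share past 1.5-fold in the dimmest class was 15.2% with a pseudocount of 1, 0.564% with 64, 4.15% without the filter and 2.196% with the filter on both arrays. In the brightest class it was 5.08% after cyclic loess, 5.08% after centring each class (an alternative added after seeing the data) and 4.51% after quantile normalization. Larger pseudocounts shrink dim differences by construction, and the cause of the other shifts was not tested. Of 2-fold calls, 45.2% were higher in the main setting and 31.7% with a pseudocount of 64. Among list medians, that of other membrane transporters turned to -0.59 with the filter at the 60th percentile, which leaves fewer members. Of 353 recomputed list medians, 346 were counted as the same, and these include medians that changed sign close to 0. After cyclic loess, for example, the auxin median went from 0.006 to -0.039. That of histones and cell cycle went from -0.017 to 0.026. Of the other medians, 2 near 0 were counted as moved, 3 went under 1.5-fold and 1 passed it. With a pseudocount of 1, 5 more named genes passed 1.5-fold, and bZIP44 went under it with equal medians. Depth cannot be read from arrays, and dim probe sets carry the least certain folds.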

Other observations

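On the ATH1 control probe set for 25S ribosomal RNA, the starved array at 48 h measured 795, against 58.7 on the control array at 48 h. At 96 h the starved array measured 60.8 and the control array 73.1. This probe set entered no comparison of genes, but it is 1 of the 18 Arabidopsis control probe sets summarised above.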
